A study of Mus musculus with 2 samples.

Results

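The collagen genes are every row of the deposited gene activity table whose symbol is Col, a number, a and a number. The rule found 47 RefSeq entries of 44 genes, out of 24165 entries of 20128 gene symbols, and the rule uses no measured value. Transcription was measured by global run-on sequencing (GRO-seq) in untreated C2C12 myoblasts, an established mouse line of muscle precursor cells, grown to 80% confluency. In GRO-seq, nuclei are isolated and engaged RNA polymerase II is allowed to run on with bromouridine, so that each sequenced nascent RNA marks a transcribing polymerase. The study made 2 replicate libraries from 4 plates for each nuclei isolation, pooled them, and gave each entry a single gene activity in RPKmM, which is the sense-strand read density of the gene body per kilobase of mappable bases, scaled to the number of reads, or the word Inactive. There is no second group, treatment or time, and a line grown alone on plastic has none of the tissue that surrounds muscle precursors in the animal.

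Collagens are secreted proteins whose chains wind around each other in groups of 3 to form a triple helix, and they make up much of the extracellular matrix. Types I, III and V assemble into fibrils, type IV forms the sheet of the basement membrane that surrounds muscle fibres, and type VI forms beaded filaments that link the cell to the matrix. Other types decorate fibrils, span the cell membrane or hold parts that are released as fragments, and several are hallmarks of cartilage.

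The triple helix is built of amino acid triplets that each begin with glycine, so a collagen coding sequence repeats a GGN codon every 9 bases. The longest uninterrupted run of this repeat was taken from the longest coding sequence of each gene in the GENCODE vM1 annotation of mm9 (NCBIM37). It was 20 repeats or longer in 44 of 44 collagen genes, from 23 in Col26a1 to 344 in Col3a1, whereas 19 of 22550 other protein-coding genes had such a run and their median was 2. The minimum of 20 was set with the runs of the collagen genes known, so the count of 44 describes them and is no test of the name. The 11 fibril-forming genes had runs of 216 to 344, and the other 33 had runs of 23 to 113. Many collagen genes are also cut into exons of 54 bases, most but not all of which hold 6 repeats. Exons of this length, whether or not they hold the repeat throughout, made up 41.2% to 55.0% of the coding exons of the 11 fibril-forming genes, against 0.657% of all coding exons of the annotation. They were not limited to that class, with 44.4% in Col22a1, 43.8% in Col9a2 and Col9a3, 36.8% in Col9a1 and 30.0% in Col19a1, and across the 33 genes with shorter runs the share ranged from 0% to 44.4%. A 54-base coding exon of this kind is shown for the pair of most active collagen genes, for a fibril-forming gene that was inactive, and for the leading genes of types VI and IV, with the GGN codon that opens each repeat in capitals. The exons lie at chr1:45382205-45382258 for Col3a1 and chr6:4465481-4465534 for Col1a2 on the plus strand, and at chr15:97828976-97829029 for Col2a1, chr1:92692492-92692545 for Col6a3 and chr8:11245211-11245264 for Col4a1 on the minus strand of mm9.
Col3a1, coding exon 6 of 51: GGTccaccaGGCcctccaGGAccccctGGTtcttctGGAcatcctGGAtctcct
Col1a2, coding exon 8 of 52: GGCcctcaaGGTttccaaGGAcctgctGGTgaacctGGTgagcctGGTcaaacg
Col2a1, coding exon 6 of 54: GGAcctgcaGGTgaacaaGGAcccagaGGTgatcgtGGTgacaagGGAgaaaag
Col6a3, coding exon 12 of 42: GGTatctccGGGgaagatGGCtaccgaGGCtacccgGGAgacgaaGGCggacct
Col4a1, coding exon 7 of 52: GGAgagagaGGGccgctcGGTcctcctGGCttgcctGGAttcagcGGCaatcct

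Of the 47 collagen entries, 32 (68.1%) were active, beside 70.2% of all entries of the table. Counted by gene, 31 of 44 collagen genes (70.5%) were active and 13 were inactive, beside 68.7% active among all gene symbols. The share of active genes was therefore near that of the whole table. An entry was called Inactive where its reads were not significantly denser than the background of gene deserts at the false discovery rate of the study, so it may lie above that background, and the call does not show that no polymerase was present. Only 3 collagen genes have several entries, and none of them had both active and inactive entries. The entries of Col18a1 were at 3.78 and 3.6 RPKmM, and both entries of Col6a6 and of Col9a1 were inactive.

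Compared with all active genes, a larger share of the active collagen genes lay under 0.1 RPKmM and a smaller share between 0.1 and 1. In terms of the highest entry of each gene, 14 collagen genes (31.8%) had an activity of at least 1 RPKmM, beside 31.6% of all genes. Among active genes alone, these shares were 45.2% and 46.1%, so they were near each other. At 10 RPKmM or above lay 3 collagen genes (6.82%), beside 1.99% of all genes. At the other end, 13 of the 31 active collagen genes (41.9%) lay under 0.1 RPKmM, and 2 of them were listed at 0, whereas 18.9% of all active genes lay under 0.1. Between 0.1 and 1 lay 4 of the active collagen genes (12.9%), compared with 35.0% of all active genes. Accordingly, an activity of at least 0.1 was reached by 18 collagen genes (40.9%), beside 55.7% of all genes. The median over the 32 active entries was 0.735 RPKmM with quartiles of 0.03 and 3.65, and over all 16957 active entries it was 0.87, between quartiles of 0.22 and 1.99. With inactive genes counted as 0, the median was 0.03 RPKmM over the 44 collagen genes and 0.27 over all genes. Among active entries the quartiles lay 122-fold apart for collagen entries and 9.05-fold apart for all active entries. Because both libraries are pooled in 1 value, no standard deviation, interval or test over samples can be given for any of these differences, and the number of reads behind a value is not in the table. The error that the table itself allows to be stated is that of rounding to 2 decimals, which leaves a value of 0.02 anywhere between 0.015 and 0.025.

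**Figure D1:**
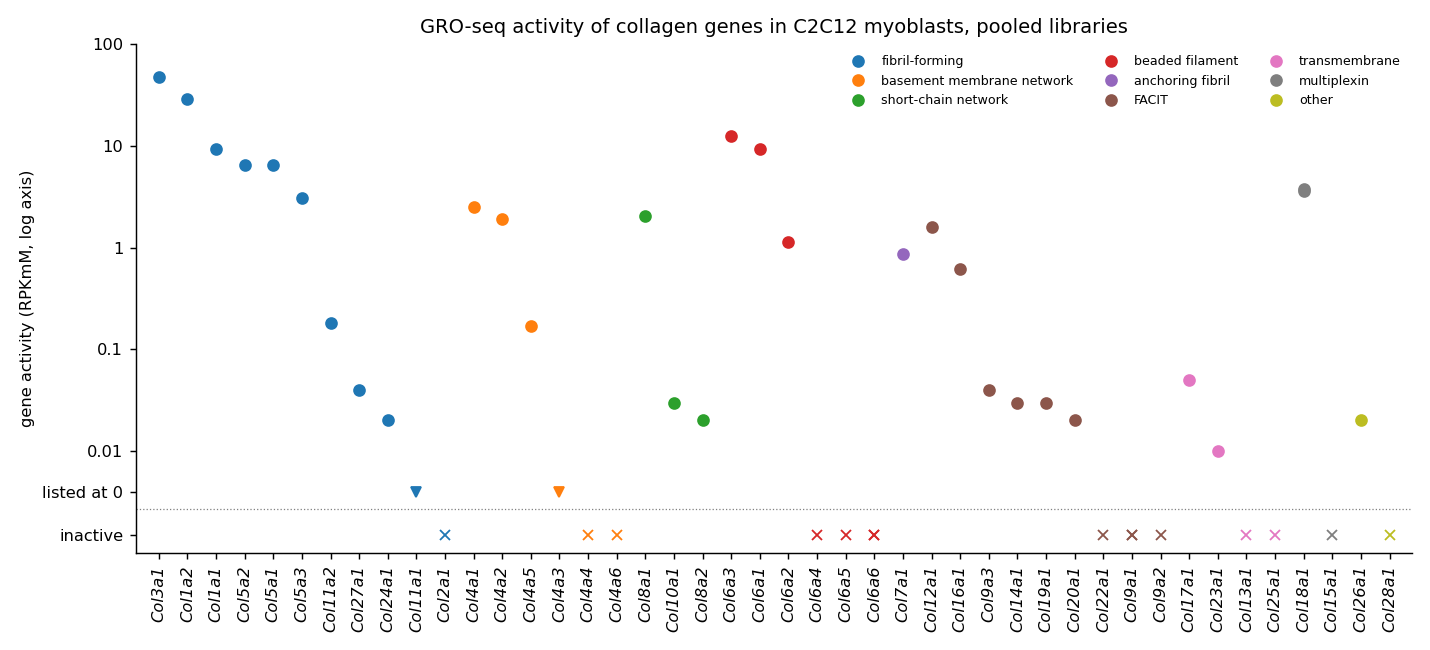
Gene activity in RPKmM (vertical log axis) of each collagen gene (horizontal axis), grouped and coloured by structural class, with 1 symbol for each RefSeq entry. Circles are active entries, triangles are active entries listed at 0, and crosses below the dotted line are inactive entries. The fibril-forming Col3a1 and Col1a2 stand highest, at 47.8 and 28.94 RPKmM, and most classes hold both genes above 1 and genes that are inactive or under 0.1.

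**Figure D2:**
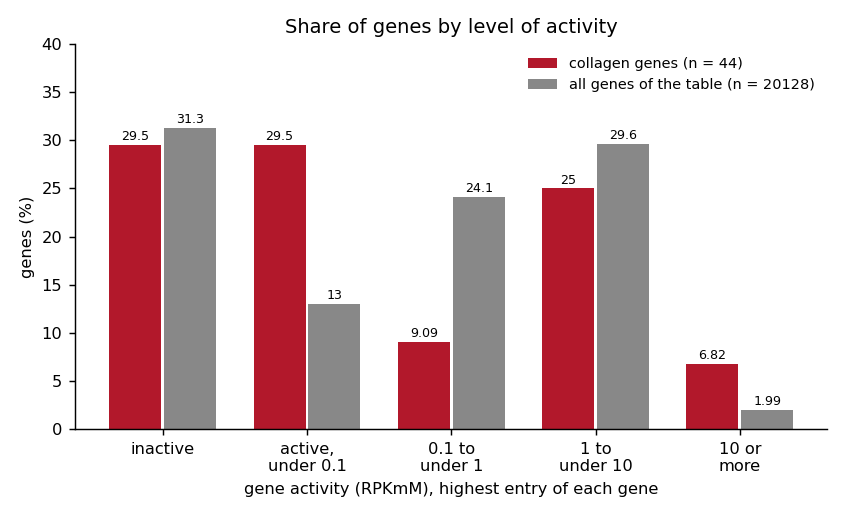
Percent of genes (vertical axis) at each level of gene activity in RPKmM (horizontal axis), for the 44 collagen genes (red) and for all 20128 gene symbols (grey), each gene taken at its highest entry. Collagen genes have 29.5% of genes active under 0.1 against 13% of all genes, and 9.09% between 0.1 and 1 against 24.1%.

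The cells were checked against marker lists of muscle and of other cells that make collagen. All 6 myoblast markers were active, beside 68.7% of all genes, with values from 0.55 RPKmM for Pax7 to 72.45 for Des, which codes for the muscle intermediate filament desmin. The 7 markers of differentiated muscle were active as well, from 0.04 to 14.26 RPKmM, so the culture also showed transcription of genes known from myotubes. Of 5 measured osteoblast markers 3 were active (60.0%), while Ibsp and Alpl were inactive. The 5 entries of Runx2 ranged from 2.58 to 4.14 RPKmM, whereas Dmp1 was at 0.13 and Sp7 at 0.06. Of 5 fibroblast markers 3 were active (60.0%), at 0.01 to 0.38 RPKmM, and Thy1 and Lum were inactive. Of 5 endothelial markers 2 were active (40%), at 0.01 RPKmM, and of 3 epidermal markers 2 were active (66.7%), at 0.01 and 0.03. The shares of these lists other than the muscle lists were near or below that of all genes. In a culture measured in bulk, activity in few cells and low activity in every cell cannot be told apart, and the part of any minority of cells in the values below was not tested.

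Fibril-forming collagens had the highest summed activity of the classes. Of the 11 genes 10 were active (90.9%, beside 68.7% of all genes) and 6 were at 1 RPKmM or above (54.5%, beside 31.6%). The sum of their activities was 102.31 RPKmM, which is 73.6% of the 138.95 RPKmM summed over all collagen genes. Col3a1 (NM_009930), which codes for the only chain of type III collagen, was listed at 47.8 RPKmM, and only 57 of the 13822 active gene symbols were higher. Col3a1 alone held 34.4% of the summed activity of the family. Type I collagen, the main fibril of skin, tendon and bone, is built of more chains of Col1a1 than of Col1a2. Col1a2 (NM_007743) was listed at 28.94 RPKmM and Col1a1 (NM_007742) at 9.29, so that the polymerase density was 3.12-fold higher on Col1a2, between 3.11 and 3.12 under rounding. Col3a1 was in turn 1.65-fold above Col1a2 and 5.15-fold above Col1a1. All 3 genes were among the most active of the table, as 96.8% of active symbols were below Col1a1, 99.2% below Col1a2 and 99.6% below Col3a1.

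Type V collagen is a minor partner that is built into type I fibrils and helps to start them. Col5a2 (NM_007737) was listed at 6.54 RPKmM and Col5a1 (NM_015734) at 6.46, which code for the chains of its common form. Their ratio was 1.01. Among the 1886 genes of the table with several active entries of at least 0.1, the highest entry exceeded the lowest by 1.1-fold at the median, which is larger than the ratio of Col5a2 to Col5a1. Entries of a gene share reads, so that spread gives a scale for the choice of entry and is not an error of measurement. The third chain, Col5a3 (NM_001317388), was at 3.04 RPKmM, 2.13-fold below Col5a1. By listed value the 5 leading fibril-forming genes were thus Col3a1, Col1a2, Col1a1, Col5a2 and Col5a1, the last pair at nearly equal values.

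Among all 14 collagen genes at 1 RPKmM or above, the order was Col3a1, Col1a2, Col6a3, Col1a1, Col6a1, Col5a2, Col5a1, Col18a1, Col5a3, Col4a1, Col8a1, Col4a2, Col12a1 and Col6a2. The neighbours Col1a1 and Col6a1, at 9.29 and 9.26 RPKmM, were separated by 1.00-fold, and Col8a1 and Col4a2, at 2.05 and 1.9, by 1.08-fold. These steps, like that between Col5a2 and Col5a1, were smaller than the median spread of entries within a gene. The other steps ranged from 1.20-fold to 2.30-fold, and 5 of them were below the upper quartile of that spread, which was 1.36. None of the steps has a replicate check, so the order is that of the listed values.

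The collagens best known from cartilage were low or inactive. Col2a1, which codes for the main fibril chain of cartilage, was inactive. Col11a1 was active but listed at 0 RPKmM, which after rounding means less than 0.005, and Col11a2 was at 0.18. Col27a1 was at 0.04, and Col24a1, a fibril-forming gene known from bone, was at 0.02. The genes of type IX, which coats cartilage fibrils, were inactive for Col9a1 and Col9a2 and at 0.04 for Col9a3. Col10a1, a marker of hypertrophic cartilage, was at 0.03 RPKmM. Beside these values, 1 of 6 chondrocyte markers was active (16.7%, beside 68.7% of all genes), namely the transcription factor gene Sox9 at 1.65 RPKmM, while Acan, Comp, Matn1, Hapln1 and Lect1 were inactive. Col2a1, which was inactive, and Col1a2, at 28.94 RPKmM, both have a run of 339 GGN repeats. Col2a1 is the only inactive gene of the fibril-forming class, and a relation of repeat length and activity within the class was not tested.

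Type IV collagen, the network of basement membranes, is encoded by 3 pairs of genes that lie head to head on the chromosome. Both genes of the first pair were above 1 RPKmM. Col4a1 (NM_009931) was listed at 2.49 RPKmM and Col4a2 (NM_009932) at 1.9, so Col4a1 was 1.31-fold higher. In the mm9 annotation Col4a1 runs from 11198423 to 11312826 on the minus strand of chromosome 8 and Col4a2 from 11312805 to 11449287 on the plus strand, and their first bases overlap by 22 bases. These chains form the network found in nearly all basement membranes. The second pair, Col4a3 and Col4a4, forms part of the network of the kidney filter and lies on chromosome 1 with 71 bases between the genes. Col4a4 was inactive and Col4a3 was active but listed at 0 RPKmM. The third pair lies on chromosome X with 1308 bases between the genes, where Col4a5 (NM_001163155) was at 0.17 RPKmM and Col4a6 was inactive. Col4a1 was 14.6-fold above Col4a5, between 14.2 and 15.1 under rounding. In 1 of the 3 head-to-head pairs both genes were thus above 1 RPKmM, and in the others a single gene was active, at a low level. The count is of 3 pairs and was not tested.

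Type VI collagen is assembled from the products of Col6a1, Col6a2 and Col6a3 in equal parts, and it is known for its role around muscle fibres, where mutations of these genes cause congenital muscular dystrophy. Col6a3 (NM_001243008) was listed at 12.56 RPKmM, Col6a1 (NM_009933) at 9.26 and Col6a2 (NM_146007) at 1.13. Col6a3 was 1.36-fold above Col6a1, whereas Col6a1 was 8.19-fold above Col6a2, between 8.15 and 8.24 under rounding. Col6a2 thus stood apart from its partners, with 57.4% of active genes below it, compared with 96.7% for Col6a1 and 97.8% for Col6a3. Col6a1 and Col6a2 are neighbours in the same orientation on chromosome 10, 85161 bases apart, with Col6a1 from 76171537 to 76188913 and Col6a2 from 76058507 to 76086375 in mm9. Their lengths are 17377 and 27869 bases. No other gene of the annotation overlaps either of them on the same strand. The alternative chains Col6a4, Col6a5 and Col6a6 follow each other on chromosome 9, with 28810 and 27984 bases between them, and all 4 of their entries were inactive.

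**Figure D3:**
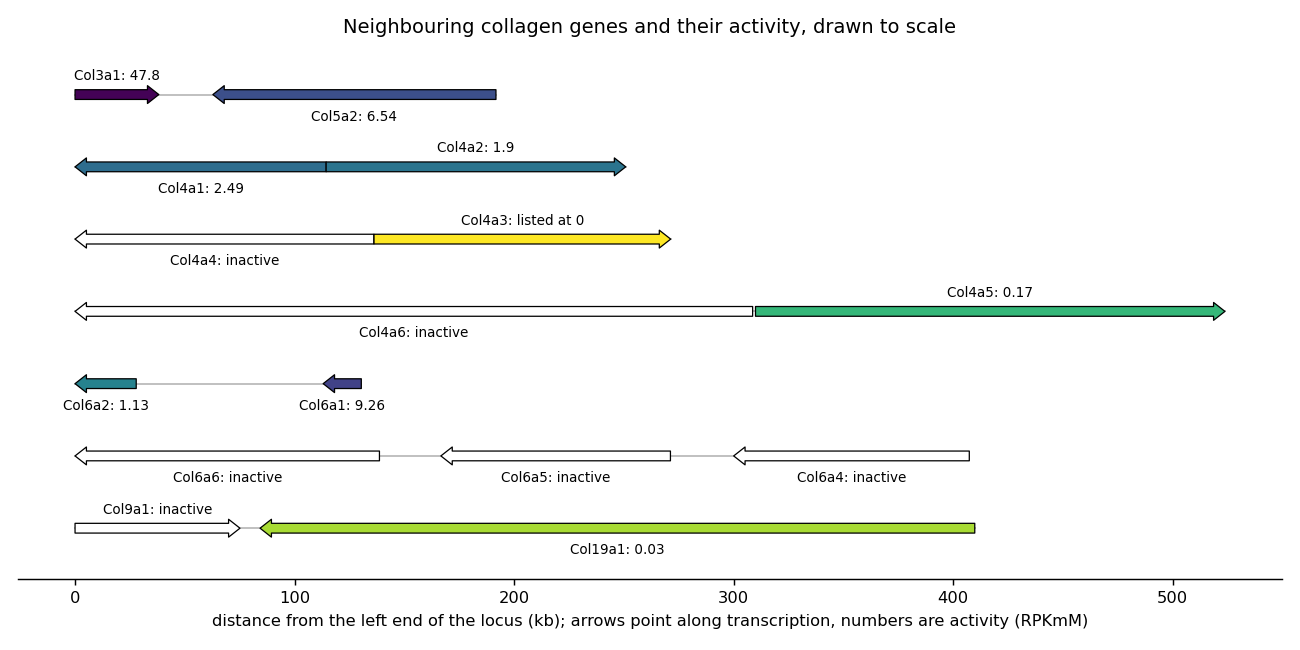
Collagen genes that are next to each other in the mm9 annotation, drawn to scale by distance in kb from the left end of each locus, with arrows along the direction of transcription. Darker fill stands for higher activity in RPKmM (given beside each gene) and white fill for inactive genes. Col4a1 and Col4a2 are both active at 2.49 and 1.9, the other type IV pairs each have 1 inactive gene, and the 3 neighbours Col6a4 to Col6a6 are all inactive.

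The largest remaining class is that of the fibril-associated collagens with interrupted triple helices (FACIT), which attach to the surface of fibrils. Of 9 FACIT genes 6 were active (66.7%, near the 68.7% of all genes), and only Col12a1 (NM_001290308), at 1.58 RPKmM, was above 1. Type XII collagen is found on type I fibrils of tendon, ligament and muscle connective tissue. Col16a1 was at 0.61 RPKmM. Col14a1, which is related to Col12a1, was at 0.03, and Col19a1 was also at 0.03, while Col20a1 was at 0.02. Col22a1, a collagen of the junction between muscle and tendon, was inactive. Beside these, the tendon markers Scx, Mkx and Tnmd were at 3.96 RPKmM, at 0.02 and inactive.

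The short-chain type VIII, known from vessel walls and the cornea, had 1 high and 1 low gene. Col8a1 (NM_007739) was listed at 2.05 RPKmM and Col8a2 (NM_199473) at 0.02, a ratio of 103. Because 0.02 is near the rounding step, this ratio lies anywhere from 81.8 to 137. Col7a1, whose product forms the anchoring fibrils below the epidermis, was at 0.86 RPKmM, close to the median of all active entries at 0.87.

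Transmembrane collagens had low values throughout. Col17a1, a component of epidermal hemidesmosomes, was at 0.05 RPKmM and Col23a1 at 0.01. Col25a1, known for its role in motor innervation of muscle, was inactive, as was Col13a1, which takes part in the neuromuscular junction. Of the multiplexins, basement membrane collagens that carry heparan or chondroitin sulphate, Col18a1 (NM_001109991 and NM_009929) was at 3.78 and 3.6 RPKmM. The C-terminal fragment of its product is endostatin. Its relative Col15a1, which is found in basement membranes of muscle, was inactive. Of the remaining genes, Col26a1 was at 0.02 and Col28a1 was inactive.

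Low values were set beside those of the genes that lie before these on the same strand. Of the 17 collagen genes active under 1 RPKmM, 5 had a protein-coding gene of the table that ended within 10 kb before their start. None of the 14 genes at 1 RPKmM or above and none of the 13 inactive genes had such a neighbour. Rxrb, at 1.83 RPKmM, ends 1043 bases before Col11a2 at 0.18. Ogfr, at 0.93, ends 1953 bases before Col9a3 at 0.04, and Arfgap1, at 2.61, ends 4008 bases before Col20a1 at 0.02. Uqcrc1, at 3.82, ends 3945 bases before Col7a1 at 0.86, and Clk4, at 2.6, ends 8153 bases before Col23a1 at 0.01. The share of all genes with such a neighbour was not computed, so the count describes these genes only. The part of these neighbours in the low values was not tested.

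Promoter sequences of 35 of the 44 collagen genes were held in the RefSeq table of GRCm38.p6, which gives 38 starts for them. Promoters of Col12a1, Col14a1, Col1a1, Col22a1, Col26a1, Col2a1, Col4a3, Col5a2 and Col9a3 are not among them. The 250 bases before each start were searched on both strands for the TATA box letters TATAAA, for the CCAAT box and for the GC box letters GGGCGG. Matches of the CCAAT box on the minus strand can share bases with a match of the GC box. GGGCGG was found for 21 of 35 collagen genes (60.0%), against 32.7% of all 32841 promoters. A gene was counted if any of its starts had a match, and counted by start, as the background is, the share was 22 of 38 (57.9%). The median GC content was also higher, at 59.0% over the collagen promoters and 52.4% over all promoters, and its part in the share of this GC-rich motif was not tested. The CCAAT box was found for 13 genes (37.1%), or 34.2% of starts, against 33.9%, and TATAAA for 5 genes (14.3%), or 13.2% of starts, against 12.4%. By activity, GGGCGG was found for 7 of the 11 genes at 1 RPKmM or above, for 8 of the 13 active genes below 1 and for 6 of the 11 inactive genes. A match is a run of letters and not a bound site. The most active pair of genes with a promoter in the table differed in composition. Over the 250 bases searched, the GC content was 62% for Col1a2 and 35.2% for Col3a1. The 150 bases before the start are shown for both on the plus strand, at chr6:4505468-4505617 and chr1:45311388-45311537 of GRCm38.p6, with motif matches in capitals. Within the bases shown, the match of Col1a2 is CCAAT, which begins at position −109 from the start, and that of Col3a1 is TATAAA, which begins at −117. Col1a2 also has 2 matches of GGGCGG farther from the start, the nearer of them at −188.
Col1a2: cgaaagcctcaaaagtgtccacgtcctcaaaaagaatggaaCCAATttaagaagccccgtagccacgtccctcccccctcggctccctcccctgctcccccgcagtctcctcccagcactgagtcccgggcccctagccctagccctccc
Col3a1: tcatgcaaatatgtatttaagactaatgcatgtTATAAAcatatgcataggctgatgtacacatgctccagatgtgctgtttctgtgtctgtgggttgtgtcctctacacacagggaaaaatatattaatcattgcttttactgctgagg

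Activity was also set beside the length of the repeat and of the gene. The 11 genes with a run of 200 GGN repeats or longer are the fibril-forming genes themselves, so a split by repeat length repeats the counts of that class and is no separate relation. Of the 33 genes with a shorter run, 8 were at 1 RPKmM or above (24.2%, beside 31.6% of all genes), 13 were active below 1 and 12 were inactive. The share of active genes among these 33 was 63.6%, beside 68.7% of all genes. The most active of these were Col6a3 with a run of 45 repeats and Col6a1 with 87. In the mm9 annotation the collagen genes ranged in length from 7.11 kb for Col10a1 to 419 kb for Col25a1. The lengths of all genes were not computed, and the part of length in the active call was not tested. The median length was 95.7 kb for the 14 genes at 1 RPKmM or above, 114 kb for all 31 active genes and 136 kb for the 13 inactive genes. Across the 31 active genes, Spearman's rank correlation of length and activity was −0.338, a description across genes of the same libraries for which no p-value is given. Length enters the activity as its denominator.

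**Figure D4:**
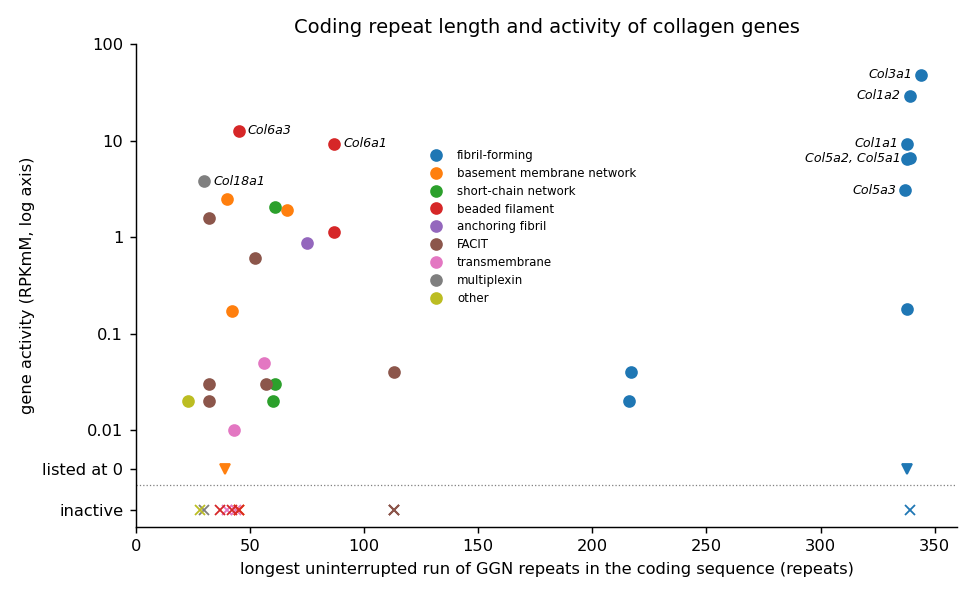
Gene activity in RPKmM (vertical log axis) against the longest uninterrupted run of GGN repeats in the coding sequence (horizontal axis, in repeats) for the 44 collagen genes, coloured by class. Circles are active genes, triangles are active genes listed at 0, and crosses are inactive genes. Fibril-forming genes lie at 216 to 344 repeats and span the whole range of activity, from inactive Col2a1 to Col3a1 at 47.8 RPKmM.

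The genes that modify and fold collagen chains inside the cell were mostly active. Of a list of 19 such genes 18 were measured, all but Mia3, and 17 were active (94.4%, beside 68.7% of all genes). At 1 RPKmM or above were 12 of the 18, beside 31.6% of all genes. The highest was P4hb at 27.99 RPKmM, a disulphide isomerase that is also a subunit of prolyl 4-hydroxylase, followed by Serpinh1 at 18.19, which codes for the collagen chaperone Hsp47. The 1 inactive gene was Colgalt2, a galactosyltransferase for hydroxylysine. The median of this list was 2.86 RPKmM with inactive genes as 0, beside 0.03 for the collagen genes and 0.27 for all genes.

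Outside the cell, procollagen ends are removed and chains are crosslinked. Of 13 genes of these steps 12 were active (92.3%, beside 68.7% of all genes), with a median of 1.28 RPKmM. At 1 RPKmM or above were 7 of the 13, beside 31.6% of all genes. Lox, the lysyl oxidase that starts crosslinks, had entries from 15.68 to 15.72 RPKmM, and Pcolce, an enhancer of the procollagen C-proteinase, was at 7.28. Tll2, a relative of that proteinase, was inactive. Of 10 collagen receptors 7 were active (70.0%), a share near the 68.7% of all genes. Of the 10, 4 were at 1 RPKmM or above, beside 31.6% of all genes. Itgb1, the integrin chain shared by many receptors, was at 13.99 RPKmM, whereas the collagen-binding partners Itga1 and Itga11 were at 0.01 and Itga10 at 0.24. Ddr1 was at 2.02 in its highest entry, Mrc2 at 2.06, and the receptor tyrosine kinase Ddr2, which binds fibrillar collagen, at 5.21. The partner chain Itga2 and the blood cell receptors Lair1 and Gp6 were inactive. Of 7 enzymes that degrade collagen 4 were active (57.1%, beside 68.7% of all genes), led by the membrane-bound Mmp14 at 10.73 RPKmM and Mmp2 at 3.45. The collagenases Mmp1a, Mmp8 and Mmp13 were inactive. Within this pathway, the highest activities were those of Col3a1 and Col1a2, and P4hb was at 27.99 RPKmM, just below Col1a2 at 28.94.

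**Figure D5:**
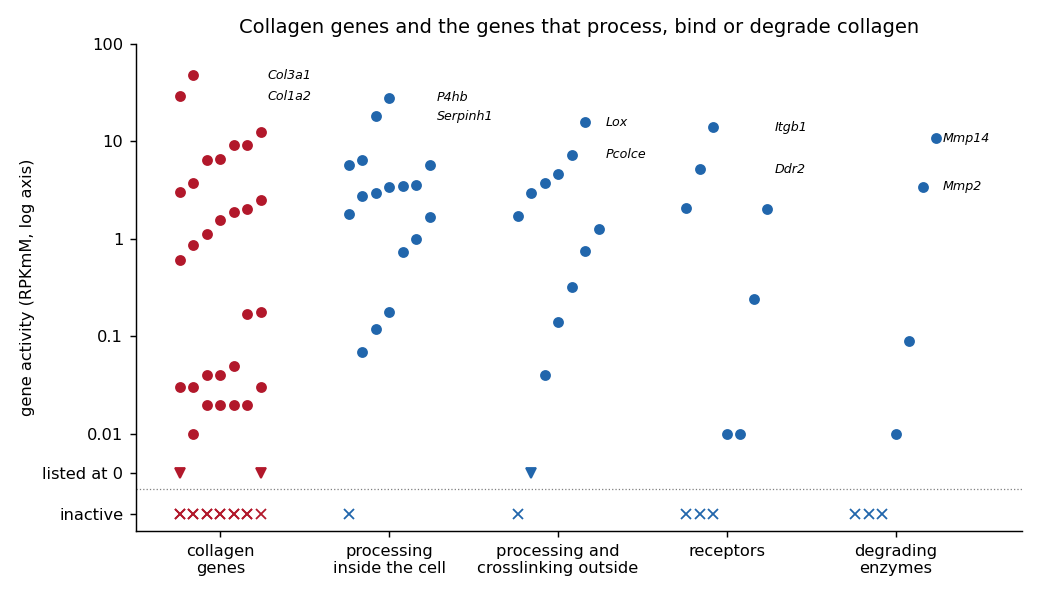
Gene activity in RPKmM (vertical log axis) of collagen genes (red) and of genes that process, crosslink, bind or degrade collagen (blue), with 1 symbol for each gene at its highest entry and sideways spread for legibility only. Circles are active genes, triangles are active genes listed at 0, and crosses are inactive genes, with the most active pair of each list named. Processing genes inside the cell have 17 of 18 genes active, while the collagen genes have 31 of 44 active and 13 of these under 0.1 RPKmM.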

How the data were processed

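Per the labels and the methods, the authors sequenced 2 GRO-seq libraries of C2C12 myoblasts, with CASAVA 1.8 and Bowtie2 named in the submitters' processing notes, on mm9. Before depositing the table they trimmed and realigned failing reads, kept uniquely mapped reads, discarded reads at rRNA and tRNA repeats and pooled the libraries. The deposited unit is RPKmM (an RPKM over mappable bases of the sense strand, from 1 kb past the TSS to the TES), rounded to 2 decimals, with 7208 entries as the word Inactive. Pooling hides variation between libraries, and removed repeats can leave bases uncounted. The table holds neither the reads per library nor the reads and mappable bases of an entry, so no counting interval was computed. The pooled read total and the correlation between libraries given by the study were not used here.

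Counts, medians and ratios were computed with Python 3.11.15, and rounding limits are 0.005 on each side. The repeat search, the rank of a gene and the choice of its entry were tested on simulated data, and the remaining counts, medians and ratios were not. Each gene was taken at its highest entry. No test across samples was possible. Positions, exons and coding sequences are of GENCODE vM1, in which Col26a1 is listed as Emid2, and promoters are of RefSeq on GRCm38.p6. The builds were not converted. Every collagen gene is named, and of the pathway lists the 2 most active genes and the inactive ones where 3 or fewer. Single marker genes, integrin chains, Ddr1, Mrc2 and genes before a collagen gene were picked once their values were known. The collagen rule reads names only, but the family, the lists and the measures were chosen for description with earlier results of these data known. The alternatives were 1 value per gene, a threshold of 0.1, genes of 10 kb or longer, inactive entries as 0, geometric means, activities of at least 0.01, the lowest entry of each gene and the rounding limits.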

Additional observations from a re-analysis of the deposited data

How the results depend on the processing

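Of 57 alternative values 20 could not differ, because the lowest entry is also the highest for the genes of the 12 ratios and in 8 class sums. Of the other 37, 29 stayed within 1.5 times the count or ratio reported or, for medians and sums, within 0.005 RPKmM, and 24 of these were the rounding limits of the ratios, none of which turned a ratio around. The number of active collagen entries was 31 by gene and 19 with an activity of at least 0.1 RPKmM. The median of active entries, 0.735 RPKmM, moved to 0.61 with 1 value per gene, to 0.03 with inactive entries as 0, to 0.448 and 0.354 as geometric means with pseudocounts of 0.01 and 0.001, and to 0.995 with activities of at least 0.01. The sum of the multiplexins was 3.6 with the lowest entries, and 2 degrading enzymes reached 0.1. Leaving out a replicate was not run, because the table holds the pooled value only. No paired analysis was possible because there is a single group in a single pooled column.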

Other observations

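A run of 20 or more GGN repeats was also found in 19 protein-coding genes that are not named as collagens, a minimum that was chosen after the runs of the collagen genes had been seen. All 19 are in the table, and 8 of them (42.1%) were active, beside 70.5% of collagen genes and 68.7% of all genes. Most belong to the collectins, the C1q and tumour necrosis factor related proteins and the scavenger receptors, which carry short collagen stretches. C1qtnf3, with a run of 23 repeats, was the only one above 1 RPKmM, at 1.01, and Colec12, a scavenger receptor with a run of 49, was at 0.4. Colq, the collagen-like tail of acetylcholinesterase at the neuromuscular junction, has a run of 59 and was at 0.02. Marco, with the longest run of this group at 81 repeats, was inactive, as were Sftpd and Adipoq.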
